A study of Mus musculus with 6 samples.

Results

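The antiviral interferon-stimulated genes are the genes that a cell switches on after an interferon signal to sense and block viruses. The set described here holds 37 named genes (antiviral effectors, nucleic acid sensors and the transcription factors that drive both). They were chosen by gene name from a fixed list, which was made with earlier results of these data known. All 37 were found among the 56362 features of each table. RNA was sequenced from intestine of BALB/c mice, with 3 wild type mice and 3 mice of the genotype FC, a knockout of FcεRIα, which is the IgE-binding chain of the mast cell and basophil receptor. Both groups carry the letters DSS in their sample titles, whose meaning the labels do not state, and every library analysed here bears those letters. The labels give neither age nor the region of gut, the series title speaks of epithelial cells, and the design text gives 3 mice a genotype. The 1 comparison of the design is knockout against wild type gut.

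In an infected cell, RNA helicases of the RIG-I family recognise viral RNA and start the production of type I and type III interferons. These cytokines act through receptors and JAK kinases on a transcription factor complex called ISGF3, which includes STAT2 and IRF9 and binds interferon-stimulated response elements in the promoters of the genes described here. Gut epithelium is known to answer mainly to type III interferon, and interferon gamma also induces many of the same genes.

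The RefSeq promoter table (GRCm38.p6, 250 bases before to 50 after each start) listed 28 of the 37 genes in 32 windows. The core of the response element was searched as GAAA, any 2 bases and GAAA again, on both strands, with overlapping matches counted. It stood in 13 of the 32 windows (40.6%), each of a different gene, against 3.44% of all 32851 windows of the same length. Of 70 windows of other interferon pathway genes, 28.6% held it. The gamma-activated site, searched as TTCNNNGAA, which reads alike on both strands, stood in 5 of the 32 windows (15.6%), against 8.3% of all. A match is a run of letters and shows no binding. A selection of 6 stretches is shown, since they belong to the IFIT, ISG15, OAS and helicase genes whose levels are given further on, with the bases 5′ to 3′ along the gene, ending at or before the base ahead of the start and with the matches in capitals. Their places are chr19:34640755-34640843, plus strand, chr19:34583343-34583446, plus strand, chr19:34607739-34607842, plus strand, chr4:156200845-156200926, minus strand, chr5:120907526-120907575, minus strand, and chr8:61928004-61928086, plus strand, in the order shown.
Ifit1: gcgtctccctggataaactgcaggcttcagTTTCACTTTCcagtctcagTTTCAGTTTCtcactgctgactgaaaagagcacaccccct
Ifit3: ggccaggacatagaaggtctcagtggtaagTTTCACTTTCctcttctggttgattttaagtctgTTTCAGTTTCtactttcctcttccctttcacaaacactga
Ifit3b: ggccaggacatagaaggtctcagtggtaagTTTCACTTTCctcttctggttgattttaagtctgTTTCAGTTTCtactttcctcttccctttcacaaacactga
Isg15: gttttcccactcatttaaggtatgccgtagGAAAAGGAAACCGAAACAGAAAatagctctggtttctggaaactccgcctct
Oas1a: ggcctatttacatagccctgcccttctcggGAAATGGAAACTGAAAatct
Ddx60: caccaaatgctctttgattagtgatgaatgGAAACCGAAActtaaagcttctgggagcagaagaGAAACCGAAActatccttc
The Ifit3 and Ifit3b stretches are the same 104 letters, beginning at base -186 and base -218 from the start. In Isg15 each of the 3 matches overlaps the next, and in Oas1a the 2 matches overlap. The promoters of Mx1, Mx2, Oas2, Usp18, Dhx58, Rtp4, Zbp1, Parp9 and Parp14 were not analysed here.

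Depth ran from 19031765 to 23092302 counts per library, and levels are given as CPM, the count per 1000000 of the library total after TMM scaling (trimmed mean of M values, which puts libraries on a common scale). A count of 0 allows at most 3 counts, or 0.124 to 0.187 CPM by library, for counting error only. The targeted gene, Fcer1a, was read 0, 10 and 18 times in wild type libraries 1 to 3 and 1, 0 and 0 times in the knockouts, which leaves wild type library 1 unchecked. Knockout library 1 was hardly better checked, since it also held few mast cell reads. The mast cell gene Cpa3 was read 7, 37 and 84 times in wild type libraries 1 to 3 and 9, 15 and 23 times in the knockouts. Epithelial markers were present in every library, with none of the 12 listed at 0. Markers of fibroblasts, endothelium and leukocytes were read in every library as well.

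Most of the listed antiviral genes lay higher in knockout gut, at 3 mice a group. The list was made with earlier results known, and its genes varied together by library. The counts over genes given here thus describe the list and are not independent evidence. Of the 37, all of which passed the filter on low counts, 36 had a higher fitted level in knockout than in wild type gut, against 44.2% of the 16732 genes tested. Their median log2 fold change was 0.77, against a median of -0.05 over all genes tested, and single values ran from -0.88 (Oas1a) to 1.94 (Usp18). None passed an adjusted p of 0.05 in edgeR's quasi-likelihood test with Benjamini-Hochberg adjustment over all genes (0 of 37, and 0% of all genes, with a smallest adjusted p of 0.684 among the 37). Over all genes edgeR gave 1145 with an unadjusted p under 0.05, and DESeq2 called 127 and limma-voom 2, none of these 2 among the 37. At an unadjusted p under 0.05 edgeR counted 18 of the 37, all higher in knockout, where 4.54% of all genes were so. That 18 became 34, 10 and 11 without wild type libraries 1, 2 and 3, and 7, 6 and 17 without knockout libraries 1, 2 and 3. The share of all genes at that p, in either direction, moved from 6.84% to 25.1%, 3.67% and 4.99%, and to 2.35%, 3.11% and 5.72%, in the same order. In 14 of the 37 every knockout library exceeded every wild type library, against 8.73% of all genes. The reverse held in 0 of the 37, against 714 of the 16732 genes tested. DESeq2 called 5 of them (Znfx1, Ddx60, Usp18, Parp14 and Parp9), all higher in knockout, against 0.514% of all genes. In RNA pooled over many cells, more cells of a type and more RNA per cell cannot be told apart.

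**Figure D1:**
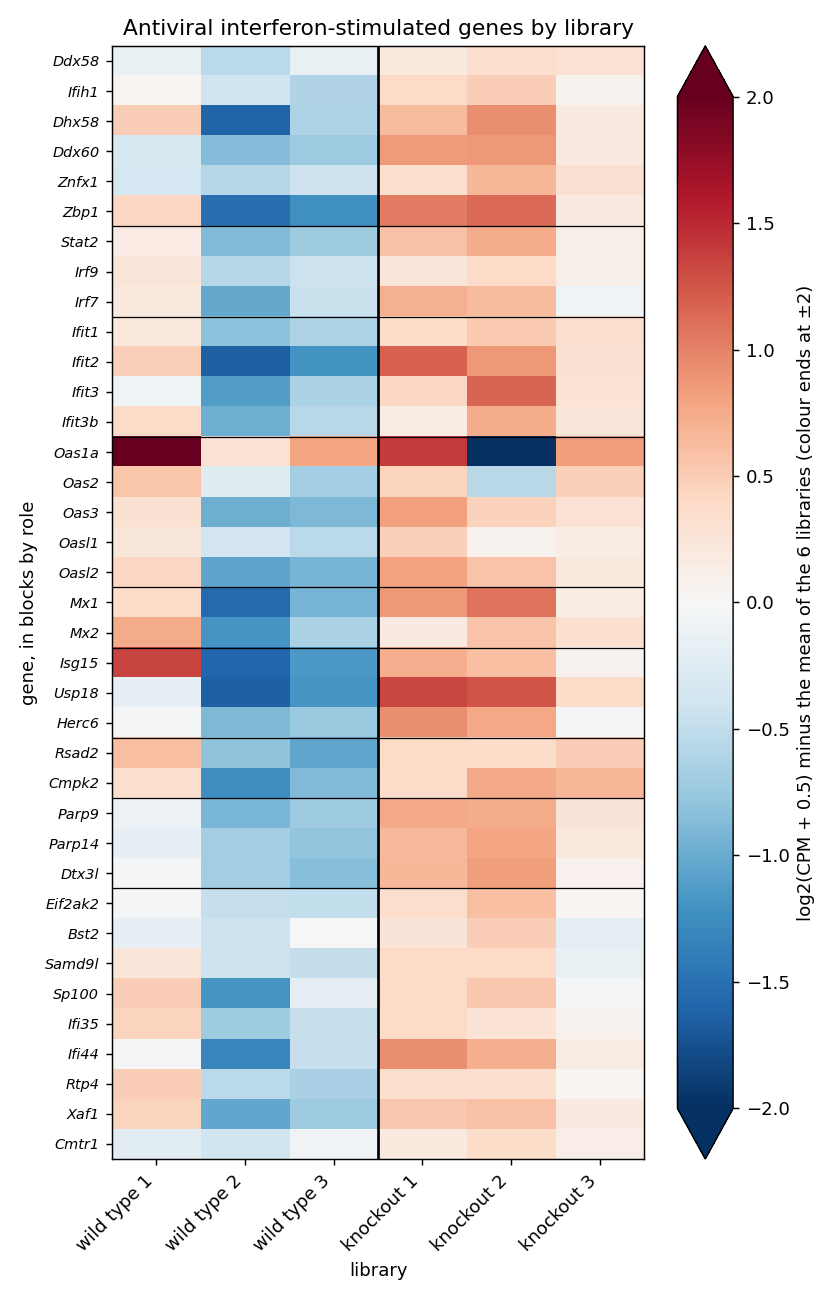
Level of the 37 genes (rows, in blocks by role) in the 6 libraries (columns), as log2(CPM + 0.5) minus the gene's mean over the libraries, with red above and blue below that mean and colours ending at 2 either way. Wild type libraries 2 and 3 are blue in nearly every row, wild type library 1 is mixed, and Oas1a stands out as dark blue in knockout library 2.

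The libraries of wild type gut were unlike each other in these genes, and wild type library 1 stood apart over all features too. Between the counts of 2 libraries, chi-square per degree of freedom was 182 and 174 for wild type library 1 with libraries 2 and 3. It was 33.7 for wild type libraries 2 and 3, and 25.0 to 48.3 between knockout libraries. Relative to each gene's mean over the 6 libraries, on the log2(CPM + 0.5) scale, the median of the 37 stood at 0.25, -0.89 and -0.63 for wild type libraries 1 to 3. It stood at 0.47, 0.59 and 0.18 for the knockouts in the same order, so wild type library 1 stood above knockout library 3. The pooled SD of this median within groups was 0.446. Wild type library 1 was the highest of its group in 35 of 37 genes, against 41.8% of all genes tested. It exceeded at least 1 knockout library in 23 of the 37 and all of them in 7. Wild type libraries 2 and 3 did so for at least 1 knockout library in 2 genes each, and in 34 of 37 genes all knockout libraries lay above both of them, against 25.8% of all genes. Knockout library 3 was the lowest of its group in 29 of 37 genes. Without wild type library 1 the median log2 fold change was 1.28, 34 of 37 genes had an unadjusted p under 0.05 and were higher in knockout, against 13.3% of all genes, and the smallest adjusted p by edgeR was 0.0611 among the 37. Dropping the wild type library that is highest in these genes raises their fold changes by construction, so these values are not separate evidence. Without wild type library 2 or 3 the median was 0.57 or 0.65, and 10 or 11 genes had an unadjusted p under 0.05 by edgeR.

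Epithelial marker sums, like the antiviral genes, were lowest in wild type libraries 2 and 3, and sums of other cell types were not all so. The summed level of the 12 epithelial markers was 24070, 12920 and 11810 CPM for wild type libraries 1 to 3 and 21530, 20520 and 18210 CPM for the knockouts. The 2 wild type libraries with low antiviral levels thus had the 2 lowest epithelial sums. Of the epithelial markers 11 of 12 were higher in knockout (median log2 fold change 0.34), and 0 were called by edgeR. The 8 fibroblast markers, 0 of them higher in knockout and 0 listed at 0, summed to 415 to 3794 CPM in wild type and 547 to 2300 CPM in knockout libraries, with the lowest sum in wild type library 1. Macrophage markers (9 of 10 higher, median 0.23, none at 0) summed to 609 to 1294 and 658 to 1542 CPM, with the highest sums in wild type library 3 and knockout library 2. T and NK cell markers (1 of 10 higher, median -0.60, none at 0) summed to 27.3 to 103 and 35.2 to 60.7 CPM, also highest in those libraries. Neutrophil markers had the lowest median (0 of 8 higher, median -1.34, none at 0), with sums of 490 to 1299 and 614 to 691 CPM. Ly6g alone gave 404 to 1198 and 572 to 665 CPM of these, so the sums are mainly those of 1 gene. In S100a8 and S100a9, 2 of the 8 markers, every knockout library was below every wild type library, against 714 of 16732 genes tested. S100a9 had an adjusted p of 0.615 by edgeR and 6.12e-09 by DESeq2. Endothelial markers (0 of 8 higher, median -0.83, none at 0) summed to 121 to 554 and 104 to 329 CPM, and B and plasma cell markers (0 of 7 higher, median -0.58, none at 0) to 368 to 1240 and 235 to 876 CPM. Plasmacytoid dendritic cells are known for making type I interferon. Their defining marker Siglech was at 0.249 to 0.951 CPM in wild type and 0.218 to 0.331 CPM in knockout libraries, and Cox6a2, another, was at 0 in 1 library of each group. That list of 7 (3 of 5 tested genes higher) summed to 172 to 610 and 343 to 563 CPM, of which the kallikrein gene Klk1 alone gave 69.9 to 499 and 251 to 433 CPM. These sums too were lowest in wild type libraries 2 and 3, at 172 and 256 CPM. Smooth muscle markers (3 of 7 higher, median -0.03, none at 0) summed to 319 to 2275 and 1383 to 1416 CPM, lowest in wild type library 1. Mast cell markers (1 of 7 tested genes higher, median -0.64) summed to 28.2 to 55.7 and 30.3 to 40.6 CPM, also lowest there. With mean epithelial marker level as a term in edgeR's fit, an alternative added after the data were seen, 34 of the 37 were higher, the median log2 fold change was 0.52 (0.04 over all genes), 20 had an unadjusted p under 0.05 (12.7% of all genes), and 0 were called, with a smallest adjusted p of 0.307. That term stood at 0.42, -0.38 and -0.53 in wild type libraries 1 to 3 and at 0.30, 0.10 and 0.09 in the knockouts. It comes from the same 6 libraries and partly follows genotype, so the fit cannot separate cell makeup from genotype. The part of cell makeup in the result was thus not tested.

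**Figure D2:**
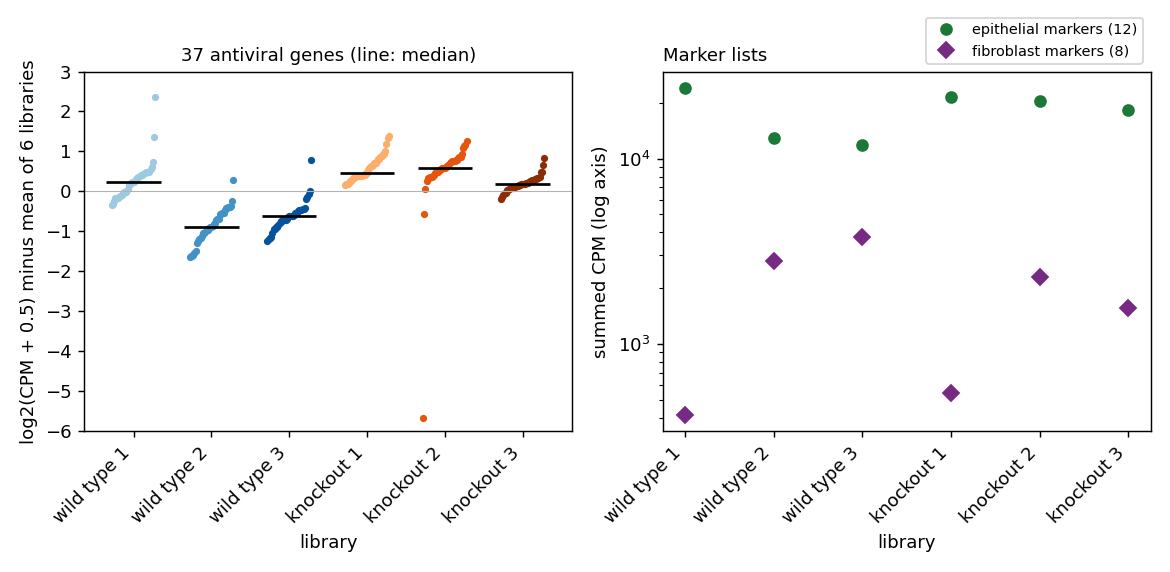
Left, level of each of the 37 genes (points, sorted within a library) as log2(CPM + 0.5) minus its mean over the 6 libraries, with the library's median as a line. Right, summed CPM of 12 epithelial and 8 fibroblast markers on a log axis. Wild type libraries 2 and 3 have the lowest medians (-0.89 and -0.63) and the lowest epithelial sums, and the point far below the others in knockout library 2 is Oas1a.

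Among the sensors of viral RNA, the groups parted in 4 of 6 genes, against 8.73% of all genes for higher levels in knockout. Znfx1, an RNA-binding helicase of the mitochondrial surface (chromosome 2, 167035793 to 167063015 on the minus strand, with GRCm38 positions from GENCODE vM21 here and below), was at 81.9, 70.6 and 78.9 CPM (wild type 1 to 3) and 134, 167 and 130 CPM (knockout 1 to 3). Its spread within groups was small (77.1 ± 5.88 and 143.5 ± 20.3 CPM, SD, n = 3), and wild type library 1 lay with its group. The log2 fold change was 0.90 (SE 0.16), with an unadjusted p of 0.000905 by edgeR, the smallest of the 37, and an adjusted p of 0.684 by edgeR and 0.00254 by DESeq2. Ddx60, a helicase that assists RIG-I (chromosome 8, 61928087 to 62038244, plus strand), was at 37.9, 25.7 and 28.4 CPM (wild type) and 85.5, 86.5 and 53.8 CPM (knockout). Knockout library 3 was the lowest of its group and still 1.42 times the highest wild type library. The log2 fold change of Ddx60 was 1.30 (SE 0.25, adjusted p of 0.684 by edgeR and 0.0113 by DESeq2).

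Ddx58, which encodes RIG-I itself, was at 27.6, 20.8 and 27.5 CPM (wild type) and 34.9, 38.7 and 37.2 CPM (knockout), a log2 fold change of 0.55 (SE 0.17). Ifih1, which encodes the long-RNA sensor MDA5, was at 95.7, 70.5 and 60.9 CPM against 121, 130 and 97.5 CPM, a log2 fold change of 0.62 (SE 0.21). In Ifih1 the groups were parted by little, since wild type library 1 and knockout library 3 differed by 95.7 against 97.5 CPM. The other sensors, Dhx58 (LGP2, the helicase of this family without signalling domains) and Zbp1 (a sensor of left-handed nucleic acid that can start necroptosis), had log2 fold changes of 0.97 (SE 0.52) and 1.34 (SE 0.56). In both, wild type library 1 lay above knockout library 3 and far above the other wild type libraries, at 38.7 CPM against 8.67 and 17.6 CPM for Dhx58 and at 235 CPM against 61.9 and 74.6 CPM for Zbp1. The adjusted p of these 4 genes by edgeR ran from 0.684 to 0.773.

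The transcription factors of ISGF3 were higher on average, but the groups overlapped in each. Stat2, its activating subunit, was at 126, 60.5 and 68.6 CPM (wild type) and 168, 189 and 121 CPM (knockout), a log2 fold change of 0.91 (SE 0.32). Irf9, its DNA-binding subunit, was at 60.1, 33.9 and 37.2 CPM against 60.0, 66.1 and 54.9 CPM, a log2 fold change of 0.47 (SE 0.24). For both genes wild type library 1 lay inside the range of the knockouts. Irf7, the factor that amplifies type I interferon production, was at 257, 111 and 165 CPM (wild type) and 369, 351 and 213 CPM (knockout), a log2 fold change of 0.81 (SE 0.36). By edgeR the adjusted p was 0.710 for Stat2, 0.768 for Irf9 and 0.735 for Irf7. Compared per length (a level, in CPM per kilobase of the gene length in the deposited tables), Irf7 stood highest of the 37 in knockout gut at 162, before Zbp1 at 158 and Isg15 at 125, and Mx2 lowest at 1.55. The SDs between mice of Irf7 and Zbp1 exceed the gaps between these 3.

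The IFIT genes, whose proteins bind viral RNA ends and hold back its translation, lie side by side on chromosome 19 in the order Ifit2, Ifit3, Ifit3b and Ifit1, between 34550694 and 34650009. Ifit1 was at 42.0, 20.2 and 23.5 CPM (wild type) and 47.1, 52.5 and 45.8 CPM (knockout), a log2 fold change of 0.77 (SE 0.29). Ifit3, the partner that steadies Ifit1 protein, was at 10.1, 4.67 and 6.79 CPM against 14.5, 24.6 and 13.0 CPM, a log2 fold change of 1.28 (SE 0.39). In these 2 genes every knockout library exceeded every wild type library (8.73% of all genes did so), while Ifit2 and Ifit3b overlapped. Ifit2 was at 138, 31.7 and 42.9 CPM (wild type) and 226, 180 and 123 CPM (knockout), a log2 fold change of 1.32 (SE 0.58), with wild type library 1 above knockout library 3. Ifit3b was at 10.97, 4.01 and 5.53 CPM against 9.32, 14.3 and 9.94 CPM, a log2 fold change of 0.72 (SE 0.43). Ifit3 and Ifit3b, whose promoter stretches shown above are the same, also share transcript sequence, with 51.2% of the 50-base windows of the Ifit3 transcript present in Ifit3b. Reads could thus be divided between them by the counting, and Ifit3 took 47.9% to 63.2% of their summed counts. Their sum was 21.1, 8.67 and 12.3 CPM (wild type) and 23.8, 39.0 and 23.0 CPM (knockout), with wild type library 1 below knockout library 3 in the sum too. The adjusted p by edgeR was 0.684 to 0.786 for the 4 genes.

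The oligoadenylate synthetases make the second messenger that activates RNase L, and the family also holds the OAS-like genes. Oas3, the synthetase of long RNA, was at 63.7, 26.0 and 27.6 CPM (wild type) and 91.6, 71.4 and 63.5 CPM (knockout), a log2 fold change of 0.95 (SE 0.38), with wild type library 1 just above knockout library 3. Oasl2 was at 173, 62.2 and 67.6 CPM against 225, 193 and 149 CPM, a log2 fold change of 0.91 (SE 0.43). Oasl1, known to hold back translation of Irf7, was at 153, 101 and 89.4 CPM against 181, 136 and 145 CPM, a log2 fold change of 0.43 (SE 0.24). All 3 genes were higher in wild type library 1 than in at least 1 knockout, and the adjusted p by edgeR ran from 0.716 to 0.781.

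Oas1a, a synthetase gene, was the 1 member with a lower fitted level in knockout, with all libraries and also without knockout library 2. Its levels were 131, 30.5 and 43.3 CPM (wild type) and 66.4, 0 and 44.6 CPM (knockout). Knockout library 2 held 0 counts where the others held 739 to 2096. Its neighbour Oas1g, a near copy that shares 57.6% of the 50-base windows of the Oas1a transcript, had 1 count in that library and 1456 to 3068 in the others. Both genes together had 5164, 2195 and 2590 counts (wild type) and 3433, 1 and 2783 counts (knockout). In knockout library 2 their summed level was 0.000331 of that in knockout libraries 1 and 3 (95% exact binomial interval 8.38e-06 to 0.00185, counting error only). Oas1a alone was at least 396-fold lower there than the mean of the other knockout libraries, taking 3 counts for the 0. Both genes lie next to each other on chromosome 5 (Oas1g 120876142 to 120887613 and Oas1a 120896256 to 120907521, minus strand). They were the 2 features of all 56362 that were under 1 CPM in knockout library 2 and over 10 CPM in each other library, a search made after the values were seen, and the same search gave 1 feature for wild type library 2 (Gm11518) and 0 for the other 4 libraries.

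Of the other Oas genes of this cluster, Oas1d, Oas1e, Oas1f and Oas1h had 0 to 3 counts in every library, and Oas2, Oas3, Oas1b and Oas1c were read in all of them. In knockout library 2 Oas3 stood at 0.921 of the mean of knockout libraries 1 and 3, Oas1c at 0.986 and Oas1b at 1.07. Oas2, at the far end of the cluster, stood at 0.487, with 51.1, 29.3 and 21.4 CPM (wild type) and 47.7, 23.4 and 48.5 CPM (knockout). Its log2 fold change was 0.23 (SE 0.40, adjusted p of 0.905 by edgeR). For Oas1a the log2 fold change was -0.88 (SE 1.47, adjusted p of 0.903 by edgeR). Without knockout library 2 it was -0.32, and without wild type library 1 it was -0.03. The response element matches of the Oas1a promoter are shown above from the reference genome, and the sequence of the mice was not analysed here. What sets knockout library 2 apart at these genes was not tested.

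**Figure D3:**
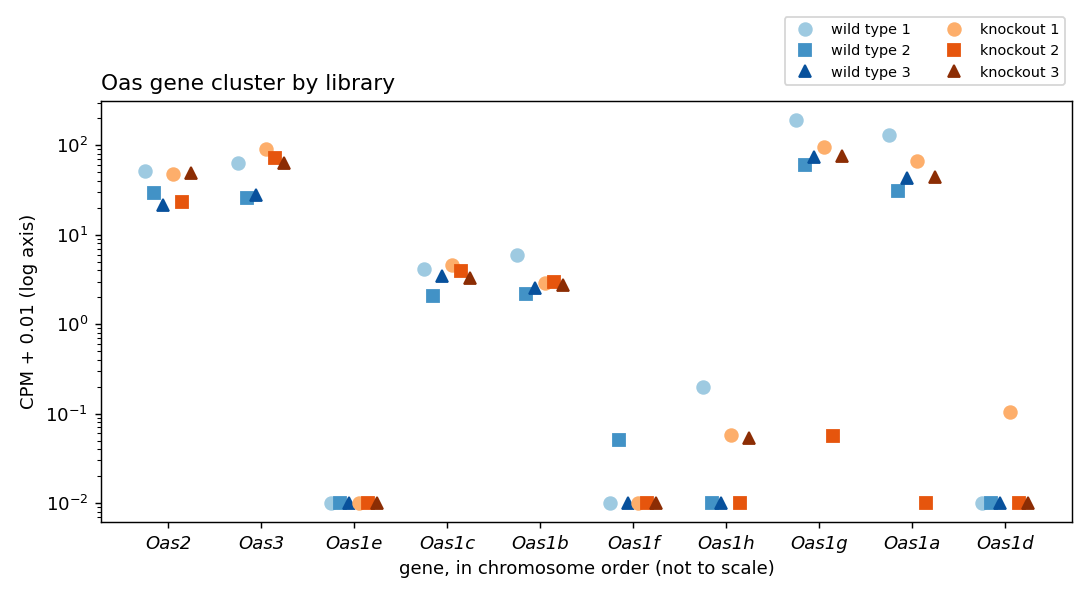
CPM + 0.01 on a log axis for the Oas genes of chromosome 5 in chromosome order (not to scale), 1 point per library. Knockout library 2 (orange square) lies at the bottom for Oas1g and Oas1a and among the other libraries for Oas3, Oas1c and Oas1b.

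The MX proteins are dynamin-like GTPases that trap viral nucleocapsids, and most laboratory strains, BALB/c among them, carry defective Mx1 alleles, so the transcript need not give a working protein. Mx1 was at 14.8, 3.55 and 5.71 CPM (wild type) and 21.3, 24.8 and 12.7 CPM (knockout), a log2 fold change of 1.29 (SE 0.56). Mx2 was at 4.99, 0.95 and 1.63 CPM against 3.22, 4.39 and 3.62 CPM, a log2 fold change of 0.58 (SE 0.63). Wild type library 1 lay above knockout library 3 for Mx1 and above all knockout libraries for Mx2. The adjusted p by edgeR was 0.729 and 0.860.

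The ISG15 system held the highest fold change of the 37 genes, that of Usp18, and among the lowest, that of Isg15. Isg15 encodes a small modifier that is joined to proteins as ubiquitin is, Herc6 the ligase that joins it in mice, and Usp18 the protease that removes it and also shuts off the type I interferon receptor. Usp18 (chromosome 6, 121245906 to 121270917, plus strand) was at 23.1, 8.01 and 11.2 CPM (wild type) and 66.2, 62.5 and 33.6 CPM (knockout). Its group means were 14.1 ± 7.97 and 54.1 ± 17.8 CPM (SD, n = 3), a log2 fold change of 1.94 (SE 0.46), with an adjusted p of 0.684 by edgeR and 0.0240 by DESeq2. The groups did not overlap, and leaving out single libraries moved the value between 1.66 and 2.45. Herc6 was at 26.6, 14.3 and 15.9 CPM against 51.9, 46.9 and 26.3 CPM, a log2 fold change of 1.14 (SE 0.35), with wild type library 1 and knockout library 3 almost level. Isg15 was at 159, 20.4 and 27.8 CPM (wild type) and 103, 94.8 and 65.1 CPM (knockout), a log2 fold change of 0.34 (SE 0.76). Wild type library 1 held 6.61 times the mean of the other wild type libraries and exceeded all knockout libraries. Without it the log2 fold change of Isg15 was 1.82, and without wild type library 2 or 3 it was -0.089 or -0.028. Of the 50-base windows of the Herc6 transcript, 23.8% also stand in other genes, mainly Gm45193. The adjusted p of Herc6 and Isg15 by edgeR was 0.684 and 0.931.

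**Figure D4:**
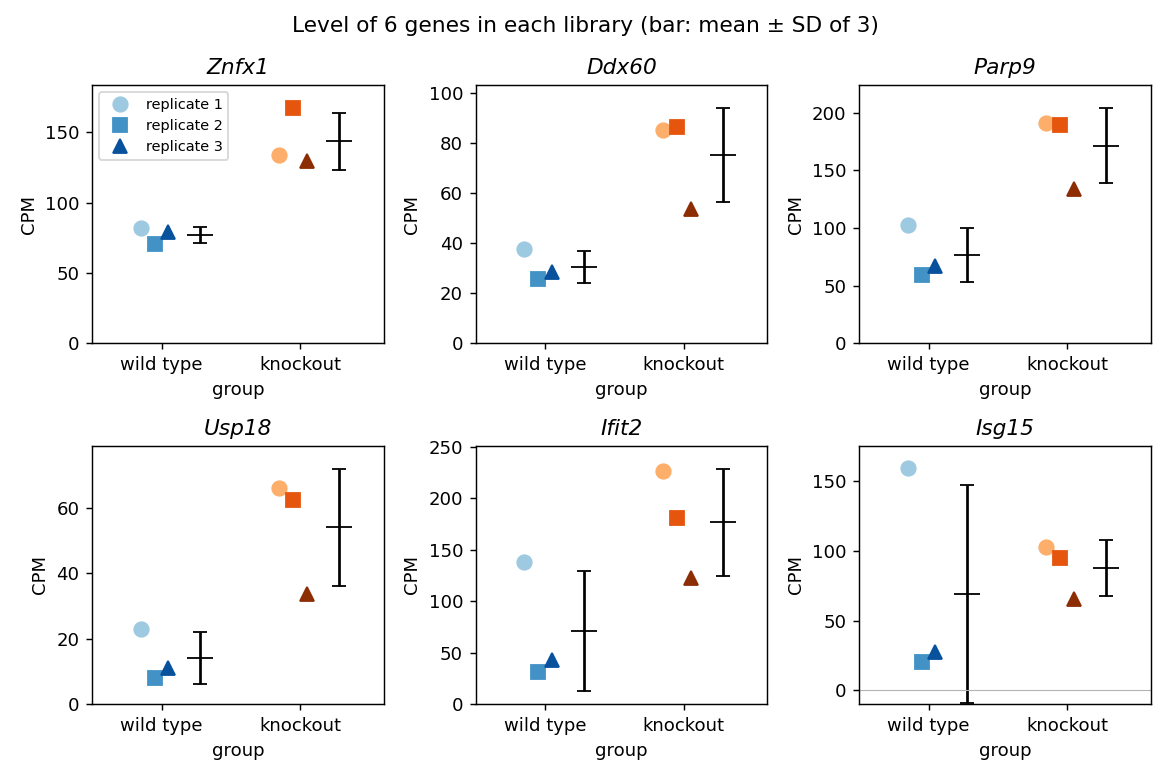
CPM of 6 genes in each library (points, shapes by replicate number) with the group mean ± SD (bars, n = 3). Znfx1, Ddx60, Parp9 and Usp18 have all knockout points above all wild type points, while wild type replicate 1 sits within the knockout range of Ifit2 and above it in Isg15.

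Rsad2 encodes viperin, which makes a chain-ending nucleotide from CTP, and Cmpk2, the kinase that supplies its substrate, lies 12751 bases away on chromosome 12 in the opposite direction. Cmpk2 was at 19.0, 6.03 and 7.88 CPM (wild type) and 19.8, 25.8 and 24.1 CPM (knockout), a log2 fold change of 1.09 (SE 0.44). Rsad2 was at 12.1, 4.25 and 3.53 CPM against 10.3, 10.2 and 11.2 CPM, a log2 fold change of 0.68 (SE 0.49). In Cmpk2 wild type library 1 was close under the lowest knockout library, and in Rsad2 it was the highest of all 6. The adjusted p by edgeR was 0.726 and 0.818.

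Parp9, Dtx3l and Parp14 parted the groups in all 3 genes, against 8.73% of all genes for higher levels in knockout. PARP9 and DTX3L form a complex that joins ADP-ribosylation with ubiquitin ligation, and PARP14 is an ADP-ribosyltransferase. The genes are neighbours on chromosome 16 (Parp14 35832874 to 35871544, Dtx3l 35926511 to 35939151 and Parp9 35938470 to 35972605), and Dtx3l and Parp9 overlap head to head by 682 bases, so their reads are not wholly separate. Parp9 was at 103, 59.5 and 67.4 CPM (wild type) and 191, 189 and 134 CPM (knockout), a log2 fold change of 1.16 (SE 0.26). Parp14 was at 138, 95.8 and 88.7 CPM against 242, 268 and 179 CPM, a log2 fold change of 1.09 (SE 0.24). Dtx3l was at 104, 65.3 and 58.8 CPM against 168, 191 and 112 CPM, a log2 fold change of 1.04 (SE 0.30). All knockout libraries lay at or above 112 CPM in these genes, and wild type library 1 was again the highest of its group. The adjusted p was 0.684 for each by edgeR, and 0.0480, 0.0392 and 0.171 by DESeq2 for Parp9, Parp14 and Dtx3l.

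Among 9 other effectors, all 9 were higher in knockout on average (44.2% of all genes) and 3 parted the groups (8.73% of all genes). Ifi44, a cytoplasmic protein that interferon induces, was at 38.1, 15.4 and 27.9 CPM (wild type) and 73.8, 64.1 and 42.8 CPM (knockout), a log2 fold change of 1.15 (SE 0.36). Eif2ak2, which encodes the RNA-activated translation kinase PKR, was at 65.7, 48.8 and 47.4 CPM against 85.3, 102 and 69.2 CPM, a log2 fold change of 0.66 (SE 0.21). Cmtr1, the cap ribose methyltransferase, was at 55.6, 49.8 and 62.1 CPM against 75.1, 84.7 and 71.4 CPM, a log2 fold change of 0.46 (SE 0.15). In Cmtr1 wild type library 1 was not the highest of its group, but 88.2% of the 50-base windows of its longest transcript also stand in transcripts of other genes, most of them of the overlapping gene Gm28043, so its counts are uncertain. Xaf1, an antagonist of an apoptosis inhibitor, was at 30.6, 10.7 and 13.5 CPM against 32.7, 33.8 and 25.4 CPM, a log2 fold change of 0.75 (SE 0.41). The other 5 had log2 fold changes of 0.39 to 0.46 with overlapping groups. They were Bst2 (tetherin, which holds budding virions at the membrane), Samd9l, Sp100 (a nuclear body protein), Ifi35 and Rtp4. Of such windows, Sp100, Ifi35 and Rtp4 share 10.6%, 10.7% and 13.6% with other genes. The adjusted p of the 9 genes by edgeR ran from 0.684 to 0.836.

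**Figure D5:**
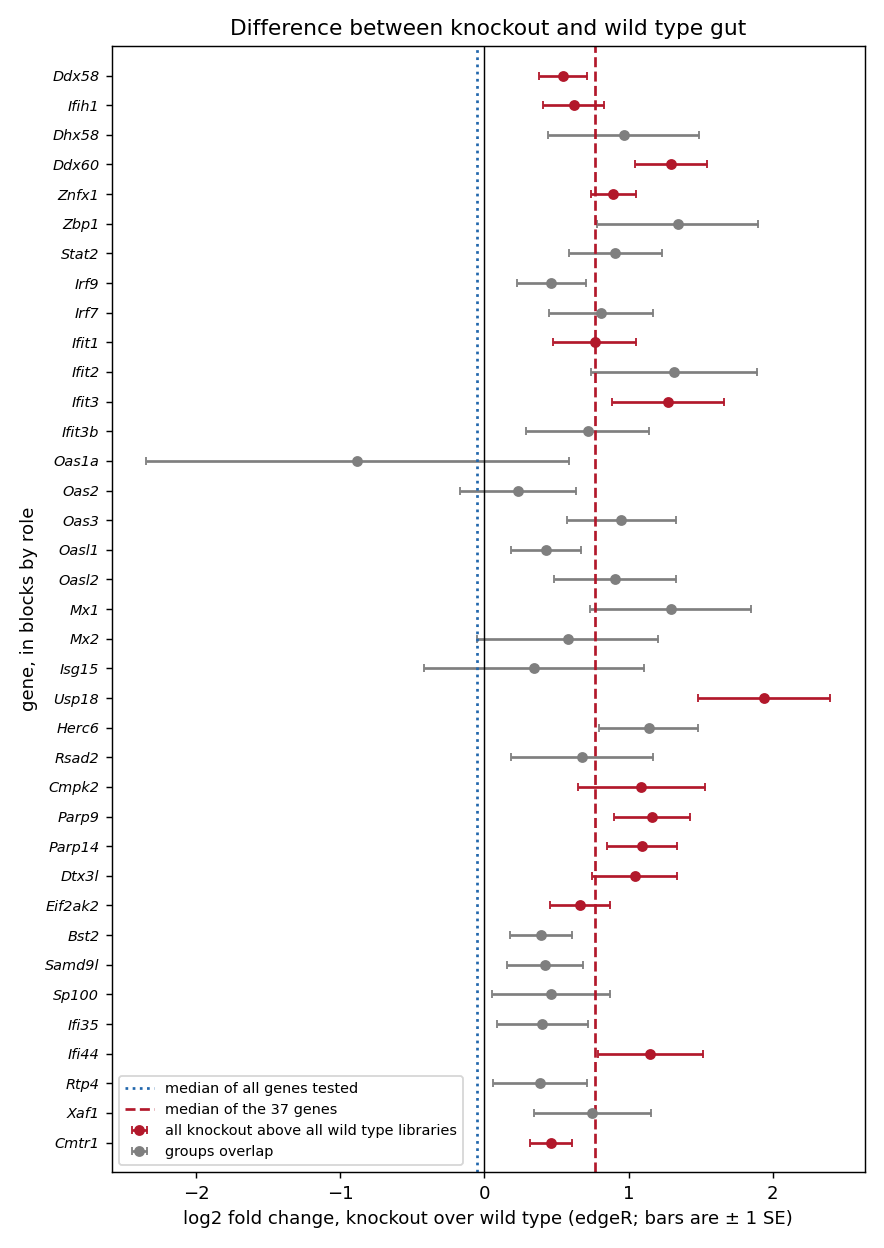
Log2 fold change of the 37 genes, knockout over wild type, with ± 1 SE from edgeR's fit. Red points are the 14 genes with every knockout library above every wild type library, and the dashed and dotted lines mark the median of the 37 (0.77) and of all genes tested (-0.05).

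The rest of the interferon pathway was read from a list of 66 other genes, of which 57 could be tested. Of these, 43 were higher and 14 lower in knockout (44.2% of all genes were higher), at a median log2 fold change of 0.35, and 0 were called by edgeR. At an unadjusted p under 0.05 there were 14, all higher in knockout, against 4.54% of all genes. DESeq2 called 2 of them, Trim30a and Parp12, both higher, against 0.514% of all genes.

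Transcripts of the listed type I and type III interferon genes were near absent, and the gene of interferon gamma was not on the list. Of 9 type I and type III interferon genes in the list, 7 (Ifnb1, Ifna1, Ifna2, Ifna4, Ifna5, Ifne and Ifnl2) had 0 counts in all 6 libraries. Wild type library 1 held 2 counts of Ifnk and 1 of Ifnl3, and knockout library 1 held 1 of Ifnk. A difference between the groups was thus not detectable at this depth.

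Among the receptors and their kinases, Ifnar1, a chain of the type I receptor, had a log2 fold change of -0.07 (SE 0.14), Ifnlr1, the specific chain of the type III receptor, 0.47 (SE 0.33), and the kinase gene Tyk2 0.37 (SE 0.18). The adjusted p by edgeR was 0.751 or more for these 3 genes.

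Upstream of the interferons, 9 of 12 genes were higher and 3 lower (Cgas, Ikbke and Irf3). The 4 of smallest p are named here. Tlr3, the endosomal RNA receptor, had a log2 fold change of 0.82 (SE 0.22), Mavs, the adaptor of RIG-I and MDA5, 0.47 (SE 0.17), Myd88 0.27 (SE 0.13) and Sting1, the adaptor of DNA sensing, 0.24 (SE 0.12). In CPM the groups did not overlap in these 4 of the 12 genes, against 8.73% of all genes for higher levels in knockout. Among feedback and nucleic acid enzymes, Samhd1, which depletes nucleotides, had 1.51 (SE 0.44), Socs1, the inhibitor of JAK kinases, 1.69 (SE 0.56), the RNA-editing enzyme gene Adar 0.53 (SE 0.20) and Ptpn2, a phosphatase that restrains JAK kinase signals, -0.45 (SE 0.19). Of the further antiviral genes, 24 of 29 were higher, led by p by Trim30a at 1.28 (SE 0.23), Parp12 at 1.23 (SE 0.27), Trafd1 at 1.12 (SE 0.26) and Phf11b at 1.76 (SE 0.49). By edgeR the adjusted p was 0.684 or more for each of these 12 genes. By DESeq2 it was 0.00606 for Trim30a and 0.0303 for Parp12.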

How the data were processed

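The values are estimated counts per gene as deposited by the authors, for 3 wild type and 3 FcεRIα knockout mouse gut libraries, with groups and replicate numbers from the sample titles. The aligner TopHat2 2.0.0 and build mm10 are listed, without their settings, per the submitters' processing notes. How genes were counted, with which annotation and strand setting, is not given in the sources used here. Gene lengths, deposited in the same tables as another column, served only to compare levels per length. The deposited counts were rounded. No 2 libraries of a group were copies (chi-square per degree of freedom of 25.0 to 182).

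edgeR 4.0.16 (R 4.3.3) tested all genes kept by filterByExpr (minimum count 10), 16732 of 56362, with TMM factors, no block, the glmQLFit method of earlier versions and Benjamini-Hochberg adjustment at 0.05. Each SE was derived from the fold change and its F statistic (log2 fold change over √F). DESeq2 1.42.0, limma-voom (limma 3.58.1), other factors and filters, omission of single libraries and a block for replicate number were alternatives. An epithelial marker covariate and the newer glmQLFit came later, with the data in view. The fits were tested on simulated counts. Members and gene lists were chosen with earlier results of these data known. Named with values were the genes whose groups did not overlap, up to 4 of smallest p in each role group, and up to 4 in each pathway list. A gene that this rule names is not reported here. Values of Oas2, Dhx58, Zbp1, Oas1g, Oas1b, Oas1c, Gm11518, S100a8, S100a9, Ly6g, Siglech, Cox6a2 and Klk1 were chosen after they were seen. Sequences are from RefSeq (GRCm38.p6), positions and transcripts from GENCODE vM21 (GRCm38, the assembly of mm10).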

Additional observations from a re-analysis of the deposited data

How the results depend on the processing

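The direction of the set held under every alternative run, with 34 to 36 of the 37 antiviral genes higher in knockout. Their median log2 fold change was 0.52 (epithelial covariate) to 0.96 (limma-voom) under the alternatives that kept every library, and leaving out 1 library gave 0.57 to 1.28, the highest without wild type library 1. Genes called over the whole table were 0 by edgeR as described, 3 with no filter on low counts, 2 by limma-voom and 127 by DESeq2. DESeq2 called 5 antiviral and 2 other pathway genes where edgeR called 0, and the cause was not tested. The median of the other pathway genes was 0.22 without knockout library 2. With 1 library left out Isg15 ran from -0.089 to 1.82, below 0 without wild type library 2 or 3 (-0.028), and Oas2 from -0.0060 (without wild type library 3) to 0.62. With the epithelial covariate Isg15 was at -0.026 and Oas2 at -0.093. The replicate numbers did not pair the samples throughout (correlation of same-numbered deviations 0.479, -0.14 and 0.00774). Under other numbers, wild type library 3 with knockout library 2 gave 0.432, and wild type library 2 with knockout library 3 gave 0.425. The remaining differently numbered pairs ran from -0.548 to -0.176. What such libraries share was not tested. With a replicate block the antiviral median was 0.90 and 0 genes were called. The newer glmQLFit changed no call among the 37. Depth did not allow the listed type I and type III interferon genes to be compared.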
